A study of Mus musculus with 36 samples.

Results

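The genes described here are the lysozymes Lyz1 and Lyz2 and the granulocyte granule genes Mpo, Elane, Prtn3, Ctsg, Ngp, Ltf, S100a8 and S100a9, which were taken by symbol and make up 10 of the 40354 genes in the count tables. All 10 were found in the counts and in the log2 normalized values. They were measured by RNA-seq while pre-B cells were turned into macrophages (B cell to macrophage transdifferentiation, BMT). B cells from the bone marrow of C57BL/6J mice, whose age is not given in the sources used here, carried a retrovirus for C/EBPα fused to the estrogen receptor and linked to human CD4 as a surface marker. Every group received such a construct, either wild type (C/EBPα WT) or with the arginine at position 35 replaced by alanine (C/EBPα R35A) or lysine (C/EBPα R35K), and hCD4-positive cells were grown on inactivated fibroblast feeders with IL-7 and myeloid cytokines. Fusion protein was activated with estradiol, and cells were taken at 0, 1, 3, 6, 18 and 120 hours post-induction (hpi), so that the 0 hpi groups also carried the construct. There were 2 libraries in each of the 18 groups and 36 libraries in all. The labels call the cells B-cells up to 18 hpi and macrophages at 120 hpi. Library totals ranged from 13044456 to 23131776 counts. The labels do not say whether the replicates came from separate animals, so the p-values below measure only the spread between these libraries.

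Lysozyme cleaves the peptidoglycan of bacterial cell walls. Mice have 2 neighbouring genes for it, Lyz2, the M-type enzyme of macrophages and neutrophils, and Lyz1, the P-type enzyme best known from Paneth cells of the intestine. Neutrophils fill their granules in waves. Azurophil (primary) granules, made by promyelocytes, hold myeloperoxidase (Mpo) and the serine proteases neutrophil elastase (Elane), proteinase 3 (Prtn3) and cathepsin G (Ctsg). Specific (secondary) granules, made later, hold lactoferrin (Ltf) and neutrophilic granule protein (Ngp), and S100a8 and S100a9 encode the 2 subunits of calprotectin, a calcium- and zinc-binding protein of the neutrophil and monocyte cytoplasm. C/EBPα drives both granulocyte and macrophage genes in normal blood formation, so the comparison asks whether granule genes join the lysozymes when it is switched on in B cells.

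Upstream sequences of 4 members are shown because each pair lies side by side on chromosome 10 and its members went different ways in size or direction. Lyz1 and Lyz2 are 5475 bases apart on the minus strand and Prtn3 and Elane 3072 bases apart on the plus strand. The RefSeq promoter windows are on GRCm38.p6 and were shortened to bases outside annotated exons. They are chr10:117292869-117293118 for Lyz1, chr10:117282322-117282522 for Lyz2, chr10:79879417-79879613 for Prtn3 and chr10:79886062-79886246 for Elane. The Prtn3 window lies inside the annotated span of the gene but in none of its exons, and the other 3 lie directly before the annotated gene. Each reads 5′ to 3′ on the strand of its gene, and capitals mark matches, on either strand, to TTGCNNAA, a C/EBP-type motif, or GAGGAA, the core of PU.1-type motifs.
Lyz1: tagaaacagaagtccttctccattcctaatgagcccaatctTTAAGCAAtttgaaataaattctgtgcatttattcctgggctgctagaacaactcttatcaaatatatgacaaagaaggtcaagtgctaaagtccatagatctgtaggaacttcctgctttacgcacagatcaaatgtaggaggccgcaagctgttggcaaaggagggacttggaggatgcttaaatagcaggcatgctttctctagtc
Lyz2: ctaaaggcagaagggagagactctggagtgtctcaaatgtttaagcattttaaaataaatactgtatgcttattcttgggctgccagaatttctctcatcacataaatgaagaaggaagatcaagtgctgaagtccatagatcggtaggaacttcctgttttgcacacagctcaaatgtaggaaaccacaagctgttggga
Prtn3: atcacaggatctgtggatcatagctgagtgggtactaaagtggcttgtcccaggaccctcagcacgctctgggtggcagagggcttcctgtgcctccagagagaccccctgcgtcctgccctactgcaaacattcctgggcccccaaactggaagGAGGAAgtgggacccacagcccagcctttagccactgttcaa
Elane: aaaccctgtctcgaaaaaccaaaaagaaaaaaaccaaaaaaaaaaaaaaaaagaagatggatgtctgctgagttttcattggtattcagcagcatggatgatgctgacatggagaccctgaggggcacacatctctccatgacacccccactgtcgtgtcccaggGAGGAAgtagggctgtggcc
Lyz1 had 1 match to TTGCNNAA, on the minus strand of the gene at positions -209 to -202 from the RefSeq start, and the Lyz2 window held neither motif. GAGGAA stood at -95 to -90 in Prtn3 and at -85 to -80 in Elane. Over the 250 bases before the start, TTGCNNAA was found in 4 of the 10 members (Lyz1, Ngp, Ltf and S100a9) and in 9.56% of 32851 promoters, and GAGGAA in 6 of 10 (Mpo, Elane, Prtn3, Ctsg, Ltf and S100a8) and in 23.3%. The 250 bases before Lyz1 and Lyz2 were 80.6% identical over 248 aligned bases. These matches describe letters only.

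Most of the 8 granule and calprotectin genes fell while the lysozymes rose. In C/EBPα WT cells Lyz2 rose from 36.1 ± 1.07 CPM (its counts divided by the library total and put on one scale for all libraries; SD, n = 2) at 0 hpi to 11812 ± 163 at 120 hpi, while the counts of the 8 granule and calprotectin genes together fell from 59.0 and 60.4 CPM in the 0 hpi libraries to 2.30 and 2.98 at 1 hpi and stood at 21.3 and 21.4 at 120 hpi, mostly as Prtn3 and S100a8. Prtn3 was the exception, higher at 18 hpi than at 0 hpi in all 3 constructs. A gene was called when it changed by at least 1.5-fold at an adjusted p of at most 0.05 in edgeR's quasi-likelihood test over all genes tested. 

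In WT, against 0 hpi, 7, 8, 7, 6 and 7 of the 8 granule and calprotectin genes were called lower at the 5 later times in turn, where 9.27%, 11.5%, 14.7%, 23.2% and 40.2% of all genes were. The only granule gene called higher was Prtn3, at 18 and 120 hpi. Both lysozymes were called higher at each time, except Lyz1 at 6 hpi, against 10.7%, 12.0%, 15.1%, 23.9% and 23.1% of all genes. In R35A, 8, 6, 8, 7 and 6 of the 8 were called lower (18.9%, 19.0%, 19.2%, 21.6% and 39.0% of all genes), Prtn3 was called higher at 18 hpi and both lysozymes at all 5 times (18.3%, 17.9%, 18.5%, 21.0% and 24.2% of all genes). In R35K, 7, 7, 6, 6 and 6 of the 7 granule genes tested were called lower (17.4%, 16.8%, 17.8%, 20.5% and 38.5%), Prtn3 was called higher at 18 and 120 hpi and both lysozymes at all 5 times (15.5%, 15.9%, 16.3%, 18.4% and 25.4%). Elane was below the low-count filter in R35K. The granule genes passed that filter largely through the 0 hpi libraries, where most were highest, so their counts of falls describe the members and lend no support.

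**Figure D1:**
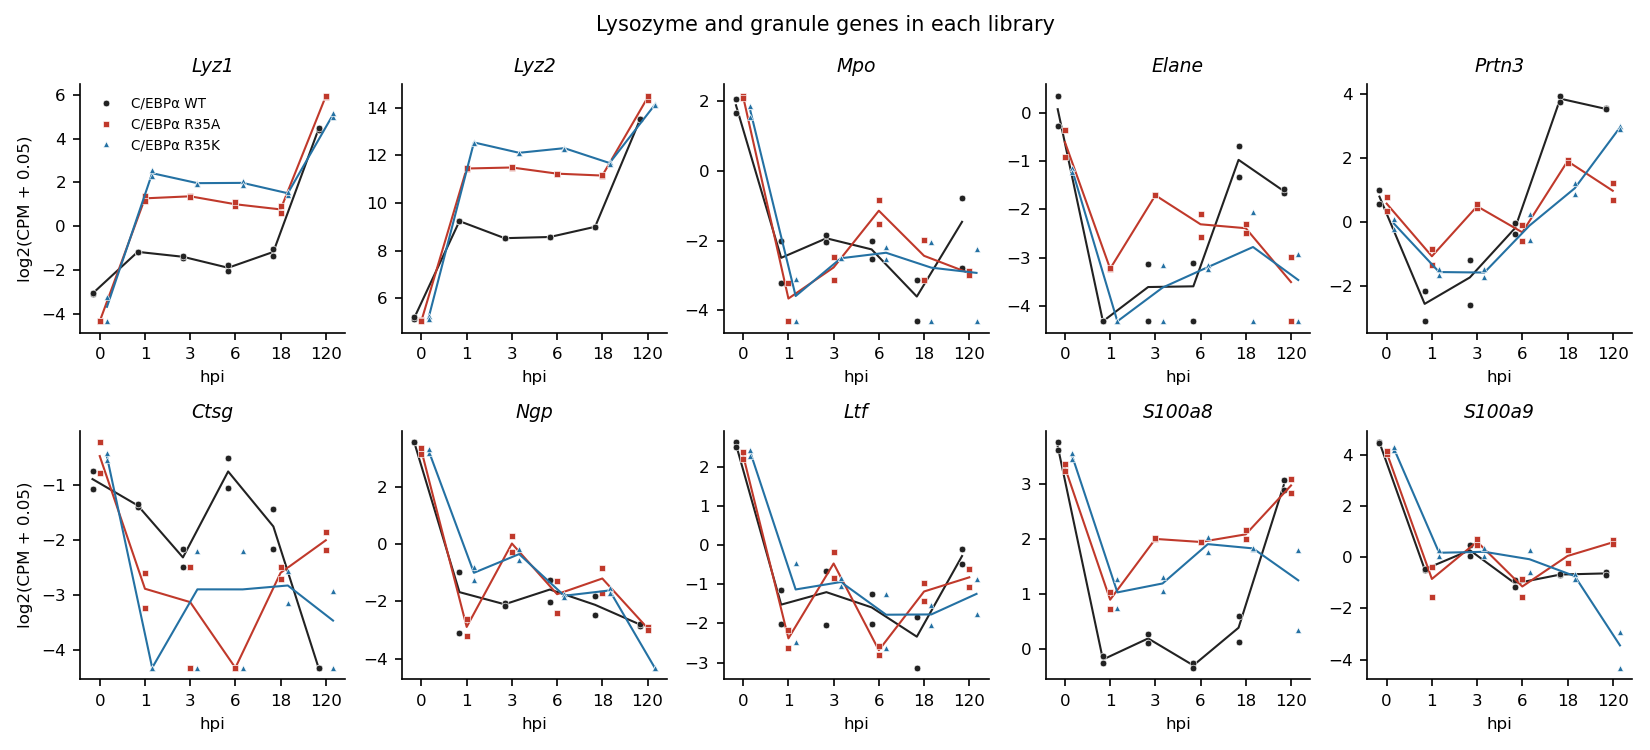
Each library's level of the 10 genes as log2(CPM + 0.05) by time after induction, with 1 point for each library and lines through the group means. A library with 0 counts sits at the lowest position drawn. Both lysozymes climbed from 0 to 1 hpi and again to 120 hpi, Mpo, Ngp, Ltf and S100a9 dropped after 0 hpi and stayed low, and Prtn3 and S100a8 came back.

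Lyz2 had 516 and 518 counts in the WT libraries at 0 hpi, 509 and 616 in R35A and 661 and 559 in R35K. At 1 hpi it had 9270 and 10469 in WT, 49977 and 48677 in R35A and 91425 and 95362 in R35K. The 3 constructs started close together, with group means of 33.5 to 36.8 CPM, and were fully apart after 1 h. R35K then stood above R35A and R35A above WT in every library. From 0 to 1 hpi Lyz2 rose by 4.09 ± 0.039 (log2 fold change ± SE) in WT, by 6.36 ± 0.041 in R35A and by 7.28 ± 0.037 in R35K (edgeR adjusted p = 5.99e-54, 2.91e-62 and 4.97e-47). Between 1 and 18 hpi the means then moved within 368 to 604 CPM in WT, 2274 to 2875 in R35A and 3273 to 5955 in R35K. All 3 constructs rose again between 18 and 120 hpi, by 4.40 ± 0.035 in WT, 3.16 ± 0.033 in R35A and 2.38 ± 0.029 in R35K (edgeR adjusted p = 2.7e-59, 4.91e-54 and 8.88e-37). Background was high in this last step, with 60.5%, 53.9% and 53.3% of all genes called in either direction. At 120 hpi Lyz2 alone took 0.927% to 1.83% of all counts, with 134866 and 122391 counts in WT, 241683 and 304926 in R35A and 215830 and 215558 in R35K. No 2 neighbouring groups overlapped in the order of Lyz2 levels except WT and R35K at 0 hpi.

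Lyz1 went the same way at a far lower level. Per kilobase of exon (RPKM, the CPM divided by that length), Lyz2 stood at 8975 ± 124 and Lyz1 at 17.1 ± 0.782 in WT at 120 hpi. Lyz1 was at or near 0 before induction, with counts of 1 and 1 in WT, 0 and 0 in R35A and 1 and 0 in R35K. At 1 hpi it had 6 and 7 counts in WT, 46 and 38 in R35A and 73 and 94 in R35K, and at 120 hpi 236 and 233, 703 and 813, and 382 and 446. R35A libraries were thus highest at 120 hpi and R35K libraries highest at 1 hpi, without overlap. From 0 to 1 hpi the count ratio was 5.69 in WT (95% exact interval 1.29 to 52.0) and 176 in R35K (31.2 to 7000), and in R35A Lyz1 was at least 26.7-fold higher against a floor of 3 counts over the group. Such intervals and floors cover counting error only. Lyz1 was called in 14 of its 15 comparisons with 0 hpi. WT at 6 hpi, with 3 and 4 counts, was the exception (edgeR adjusted p = 0.171), and WT at 1 hpi (adjusted p = 0.0121) was not called without either WT library at 0 hpi (edgeR adjusted p = 0.0708 and 0.0637). The call at 3 hpi in WT was lost with DESeq2 (adjusted p = 0.0809), without the low-count filter (0.0730) and with any of 4 libraries left out (0.0640 to 0.125), and that at 18 hpi without WT replicate 1 at 0 hpi (edgeR adjusted p = 0.0544). Lyz1 and Lyz2 transcripts are 96.0% identical over 1262 aligned bases, and 16.1% of the 50-base windows of Lyz1, the length of a read, occur exactly in Lyz2. Within 1 mismatch it was 44.2%. In libraries with both, there were 1014 to 1941 Lyz2 counts for each Lyz1 count from 1 to 18 hpi and 344 to 571 at 120 hpi. How many low Lyz1 counts were Lyz2 reads was not tested, and low Lyz1 values are uncertain for that reason.

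Lyz2 and Csf1r, the receptor for the macrophage growth factor CSF-1, kept a nearly steady count ratio across constructs. This pair was chosen after its values were seen. At 1 hpi the 6 libraries ranged from 5.08 to 5.52 Lyz2 counts for each Csf1r count, although Lyz2 itself stood at 604 ± 6.49 CPM in WT and 5955 ± 54.5 in R35K. The ranges were 4.66 to 5.99 at 0 hpi, 4.61 to 4.82 at 3 hpi, 4.18 to 4.45 at 6 hpi and 2.92 to 3.70 at 18 hpi. They spread to 5.26 to 12.4 at 120 hpi. For Mpeg1 and Fcer1g, whose courses were closest to that of Lyz2 (given below), the ranges at 1 hpi were wider, 4.12 to 5.06 and 21.3 to 37.8. At 120 hpi those ranges were 3.70 to 6.06 and 19.3 to 41.0. The values are counts and not levels per length.

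**Figure D2:**
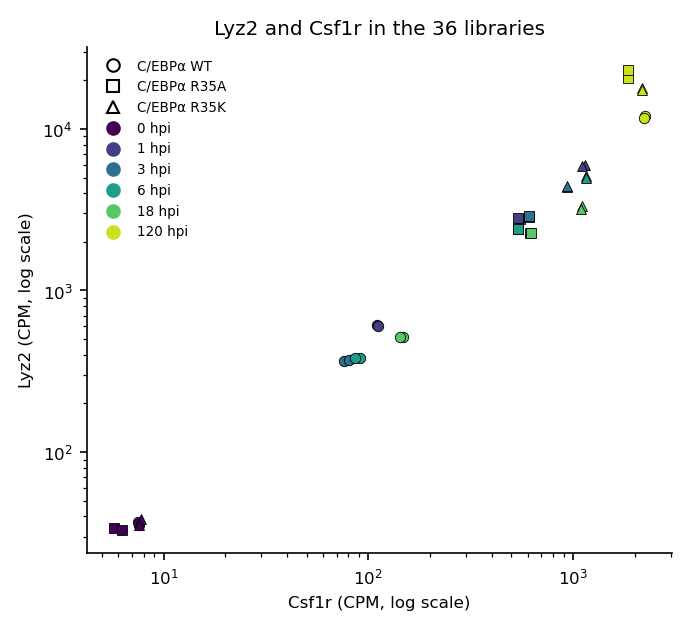
Lyz2 against Csf1r in CPM, both on log scales, with 1 point for each of the 36 libraries, shapes for constructs and colours for time. Libraries from 0 to 18 hpi lie close to 1 diagonal whatever the construct, and at 120 hpi the R35A and R35K libraries lie above the WT libraries at similar Csf1r.

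Among the azurophil granule genes, Mpo was the highest at 0 hpi in each construct, and only Prtn3 was later called above its start. Mpo had 61 and 44 counts in WT at 0 hpi, 66 and 79 in R35A and 50 and 57 in R35K. In the 30 later libraries it had at most 11 counts. No later library overlapped with any library at 0 hpi, and Mpo was called lower in all 15 comparisons with 0 hpi. At 1 hpi WT had 3 and 1 counts, a log2 fold change of -4.80 ± 0.46 (edgeR adjusted p = 6.68e-13).

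Prtn3 had 28 and 20 counts in WT at 0 hpi, 1 and 3 at 1 hpi, 6 and 2 at 3 hpi, 11 and 15 at 6 hpi, 239 and 231 at 18 hpi, and 131 and 119 at 120 hpi. It thus fell and then came back to above its starting level, with no overlap between 18 or 120 hpi and any earlier WT time. The changes from 0 hpi were -3.67 ± 0.51 at 1 hpi, 3.08 ± 0.18 at 18 hpi and 2.64 ± 0.20 at 120 hpi (edgeR adjusted p = 2.35e-08, 8.89e-21 and 7.32e-17). Of all genes, 23.9% and 23.1% were called higher at these later times. In R35A the gene had 18 and 31 counts at 0 hpi, 59 and 69 at 18 hpi and 18 and 30 at 120 hpi. Only the 18 hpi libraries stood above the start (1.30 ± 0.23, edgeR adjusted p = 2.61e-06), and 120 hpi against 0 hpi was not called (0.28 ± 0.29, adjusted p = 0.366). In R35K it had 14 and 16 counts at 0 hpi, 38 and 28 at 18 hpi and 94 and 92 at 120 hpi. There the rise was still under way at 18 hpi (1.11 ± 0.30, adjusted p = 0.00171) and was 2.97 ± 0.24 at 120 hpi (edgeR adjusted p = 2e-13). From 18 to 120 hpi Prtn3 rose by 1.86 ± 0.20 in R35K (edgeR adjusted p = 3.68e-10), fell by 1.02 on the log2 scale in R35A (SE 0.24, adjusted p = 0.000142), and changed by -0.44 ± 0.13 in WT, short of 1.5-fold. Prtn3 overlaps Plppr3 on the opposite strand. Plppr3 had 148 and 150 counts in WT at 0 hpi and 266 and 334 at 18 hpi, and whether its reads enter the Prtn3 count depends on a strand setting not given in the sources used here.

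Elane, directly downstream of Prtn3, did not rise above its starting level in any construct. It had 18 and 11 counts in WT at 0 hpi, 0 and 0 at 1 hpi, 9 and 6 at 18 hpi and 3 and 3 at 120 hpi. WT libraries at 18 hpi thus held more than those between, yet less than at the start, and the change from 0 hpi was -1.14 ± 0.47 (edgeR adjusted p = 0.0261; DESeq2 adjusted p = 0.225). In WT there were 1.66 Prtn3 counts for each Elane count at 0 hpi and 31.3 at 18 hpi (95% exact interval 18.8 to 56.4). At 6 hpi the ratio already stood at 26.0 (4.27 to 1066), on 1 Elane count. Both genes thus rose in WT between 6 and 18 hpi, and the difference in ratio from 0 hpi was present before that rise. In R35A Elane had 11 and 9 counts at 0 hpi and at most 4 in any later library, and 3 hpi was not called (adjusted p = 0.0653). R35K started at 7 and 6 counts and later had at most 3.

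**Figure D3:**
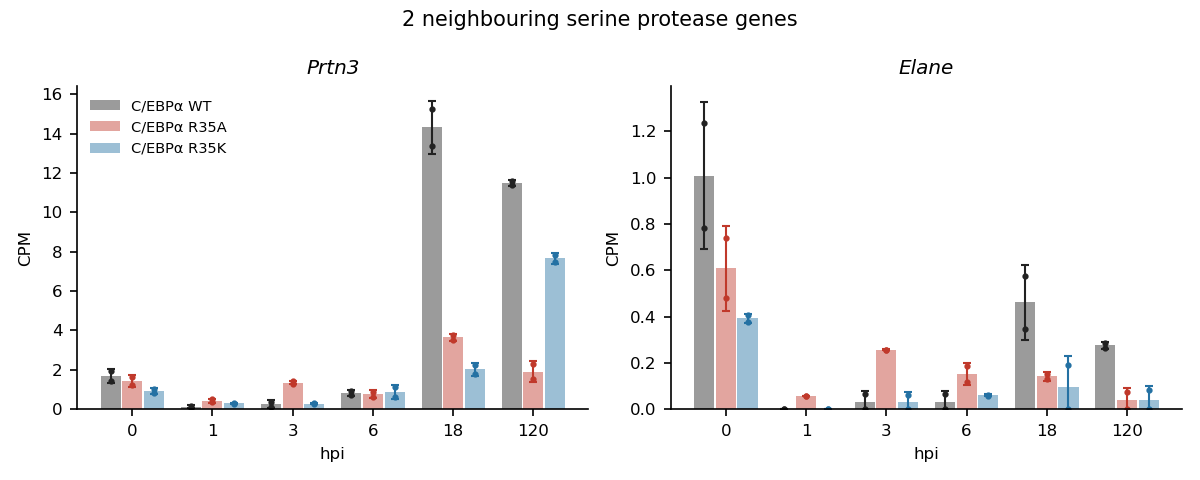
Prtn3 and Elane in CPM by time, with bars at the group mean, error bars of 1 SD and a dot for each of the 2 libraries; the axes of the 2 panels differ in scale. Prtn3 in WT reached 14.3 CPM at 18 hpi from 1.67 at 0 hpi, and Elane was highest at 0 hpi in each construct.

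Ctsg had 12 or fewer counts in every library. Its fall after 0 hpi was called at every time in the mutants, but in WT only at 3 and 120 hpi. In WT it had 8 and 6 counts at 0 hpi, 5 and 6 at 1 hpi, 10 and 7 at 6 hpi and 0 and 0 at 120 hpi. WT at 1, 6 and 18 hpi was not called against 0 hpi (edgeR adjusted p = 0.497, 0.864 and 0.156). The WT call at 3 hpi was lost with DESeq2 (adjusted p = 0.152) and without the low-count filter (edgeR adjusted p = 0.0974). It was also lost with any WT library left out (edgeR adjusted p = 0.0509 to 0.197). The WT call at 120 hpi was kept with DESeq2 (adjusted p = 0.00423). R35A libraries had 12 and 10 counts at 0 hpi and at most 3 at any later time, and R35K libraries 12 and 10 and at most 4. With DESeq2 the R35K falls at 3, 6 and 18 hpi were not called (adjusted p = 0.0619, 0.0600 and 0.0638), nor that of R35A at 120 hpi (0.0843). At 6 hpi the R35A libraries, with 0 and 0 counts, were lower than WT (edgeR adjusted p = 3.61e-05). They were also called lower at 1 hpi, with 1 and 2 counts (adjusted p = 0.0465), and higher at 120 hpi, with 2 and 3 counts against 0 and 0 (adjusted p = 0.0383). Both of these calls were lost without the low-count filter (edgeR adjusted p = 0.104 and 0.0686) and with any 1 library of the compared groups left out (0.0581 to 0.232). The change from 0 hpi differed from that of WT at 6 hpi in R35A (adjusted p = 0.000156) and at 1 and 6 hpi in R35K (edgeR adjusted p = 0.00346 and 0.0133, the last 0.130 without R35K replicate 1), and at the other times it was not called different.

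The specific granule genes Ngp and Ltf were lower at every later time than at 0 hpi in each construct. Ngp had 170 and 164 counts in WT at 0 hpi, 151 and 166 in R35A and 154 and 159 in R35K. Later libraries held at most 8 in WT, 18 in R35A and 20 in R35K, all far below. The change at 1 hpi was -5.35 ± 0.285 in WT and -4.44 ± 0.25 in R35K (edgeR adjusted p = 3.95e-22 and 6.69e-17), while the 2 and 1 counts of R35A were lower with adjusted p = 7.85e-23. At 3 hpi R35A had 12 and 18 counts against 3 and 3 in WT, a difference of 2.33 ± 0.55 (edgeR adjusted p = 0.000364). Ltf had 90 and 80 counts in WT at 0 hpi and 3 and 7 at 1 hpi, and at most 13 in any of the 30 later libraries. It was called lower in all 15 comparisons with 0 hpi, like Ngp. In WT it was called higher at 120 hpi (10 and 7 counts) than at 18 hpi (1 and 4), by 2.18 ± 0.64 (edgeR adjusted p = 0.00204), and in R35A and R35K this step gave 0.28 ± 0.55 and 0.53 ± 0.74.

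S100a8 and S100a9, whose proteins pair, parted. S100a9 had 329 and 314 counts in WT at 0 hpi, 246 and 331 in R35A and 316 and 312 in R35K. It fell to 10 and 12, 13 and 5, and 15 and 19 at 1 hpi, and no later library held more than 29. At 120 hpi it had 7 and 6 counts in WT, 18 and 18 in R35A and 1 and 0 in R35K. The R35A libraries were above WT there (1.27 ± 0.41, edgeR adjusted p = 0.00956, and up to 0.0623 with 1 library left out), and R35K was 461-fold lower than its own 0 hpi libraries (95% exact interval 82.4 to 18228).

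S100a8 had 177 and 189 counts in WT at 0 hpi, 12 and 15 at 1 hpi, 23 and 18 at 18 hpi and 83 and 87 at 120 hpi. In WT it thus came back between the last 2 times, by 2.52 ± 0.21 (edgeR adjusted p = 8.39e-16), and remained below the start (-0.84 ± 0.13, adjusted p = 1.04e-07). In R35A it had 153 and 175 counts at 0 hpi, 36 and 28 at 1 hpi, 61 and 62 at 3 hpi, 64 and 82 at 6 hpi, 69 and 77 at 18 hpi and 83 and 112 at 120 hpi. Its fall was smaller than in WT from 1 to 18 hpi. Differences in change from 0 hpi were 1.47 ± 0.31, 2.21 ± 0.26, 2.70 ± 0.27 and 2.11 ± 0.25 (edgeR adjusted p = 0.000131, 6.5e-10, 1.73e-11 and 1.03e-09). At 120 hpi WT and R35A stood at 7.83 ± 0.689 and 7.79 ± 0.999 CPM, a difference of 0.01 ± 0.15 (adjusted p = 0.985). In R35K it had 188 and 186 counts at 0 hpi, 59 and 55 at 18 hpi and 41 and 15 at 120 hpi. R35K went down over the last step (-0.65 ± 0.27, edgeR adjusted p = 0.0293), but its 2 libraries at 120 hpi differed by more than any other pair for this gene, and without replicate 2 the step was not called (edgeR adjusted p = 0.873).

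There were 0.569 S100a8 counts for each S100a9 count in WT at 0 hpi (95% exact interval 0.499 to 0.648), 0.568 in R35A and 0.596 in R35K. The ratio then rose to 1.23, 3.56 and 1.82 at 1 hpi, and to 13.1 (7.44 to 25.1), 5.42 and 56.0 (9.65 to 2251) at 120 hpi. In every later group S100a8 gave a larger share than at 0 hpi, and the last R35K value rests on 1 S100a9 count.

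**Figure D4:**
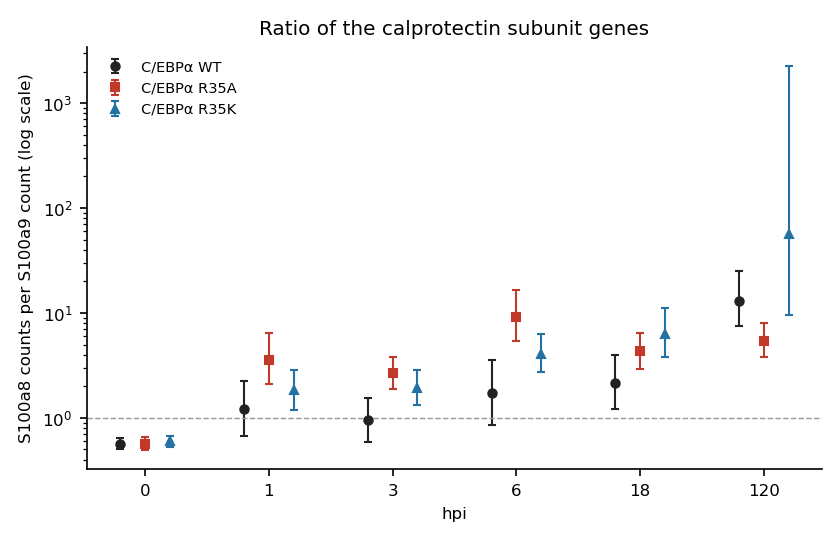
S100a8 counts for each S100a9 count, on a log scale, over the 2 libraries of each group, with 95% exact counting intervals; the dashed line marks equal counts. The 3 groups at 0 hpi lie together at 0.568 to 0.596, and the value for R35K at 120 hpi has the widest interval because S100a9 had 1 count.

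R35A was also compared with WT directly at each time. At 0 hpi none of the 10 members was called by edgeR and 0.00% of all genes were. None had an unadjusted p under 0.05 with a 1.5-fold difference either, and DESeq2 called none, giving an adjusted p for 1 member. At the later times in turn, 4, 6, 3, 3 and 4 members were called higher in R35A (8.51%, 7.95%, 6.2%, 6.90% and 12.4% of all genes) and 1, 0, 1, 1 and 1 lower (10.8%, 9.04%, 7.52%, 3.17% and 6.38%). Lyz1 and Lyz2 were among the higher at all 5 times and S100a8 from 1 to 18 hpi. Lyz2 in R35A exceeded WT by 2.17 ± 0.032 at 1 hpi and 2.94 ± 0.033 at 3 hpi, and Lyz1 by 2.51 ± 0.31 and 2.87 ± 0.32 (edgeR adjusted p = 1.03e-45, 7.91e-51, 1.28e-09 and 1.27e-10). Prtn3 turned over time. It was higher in R35A at 1 hpi (1.69 ± 0.69, edgeR adjusted p = 0.0366, 0.0628 with DESeq2 and 0.229 without WT replicate 1) and 3 hpi (2.41 ± 0.46, adjusted p = 1.49e-05), and lower at 18 hpi (-1.98 ± 0.15, adjusted p = 2.94e-16) and 120 hpi (-2.56 ± 0.20, adjusted p = 1.51e-15). Mpo and Ltf were called at no time.

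The change from 0 hpi in each mutant was set against that in WT in 1 fit. In R35A, 4, 6, 3, 4 and 3 members were called with a higher change than WT at the 5 later times in turn (5.29%, 5.53%, 4.26%, 5.47% and 9.85% of all genes) and 0, 0, 1, 1 and 1 with a lower one (8.74%, 7.43%, 5.99%, 2.89% and 4.63%). In R35K it was 3, 4, 4, 2 and 0 higher (6.84%, 6.14%, 7.66%, 8.91% and 7.51%) and 1, 0, 1, 1 and 2 lower (5.08%, 3.87%, 4.53%, 4.42% and 2.63%). At an unadjusted p under 0.05 the edgeR counts of 0 in this comparison gained 1 member, Ctsg in R35A at 1 hpi (lower), and DESeq2 called none there. For Lyz2 the excess over WT was 2.27 ± 0.056 at 1 hpi and 1.01 ± 0.055 at 120 hpi in R35A (edgeR adjusted p = 5.98e-35 and 5.31e-21), and 3.27 ± 0.054 and 0.56 ± 0.053 in R35K (adjusted p = 2.69e-46 and 6.46e-13, the last under 1.5-fold). Prtn3 lagged in both mutants at 18 hpi, by -1.78 ± 0.33 in R35A and -1.93 ± 0.39 in R35K (edgeR adjusted p = 3.7e-05 and 7.23e-05). At 120 hpi it was behind in R35A (-2.36 ± 0.37, adjusted p = 7.64e-07), while R35K had a difference of 0.30 ± 0.35 (adjusted p = 0.615). S100a8 fell less than in WT in R35K too, by 1.43 ± 0.36 at 1 hpi and 2.45 ± 0.32 at 6 hpi (edgeR adjusted p = 0.00114 and 6.82e-09), and at 120 hpi its change was below that of WT (-1.58 ± 0.26, adjusted p = 2.24e-06). R35K was deposited in a table of its own, so that its direct level against WT cannot be told apart from the table and was not tested. Comparisons with 0 hpi share those libraries.

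A list of 19 other granule genes held both genes that rose far and genes that fell after 0 hpi. In WT at 120 hpi, 9 of 16 tested were called higher and 4 lower, beside 23.1% and 40.2% of all genes. In R35A at 1 hpi 7 and 5 were, beside 18.3% and 18.9%. Mmp8, the neutrophil collagenase, had 24 and 27 counts in WT at 0 hpi, 1170 and 1301 at 1 hpi and 29742 and 28327 at 120 hpi, and rose by 10.41 ± 0.070 over the whole course. Hp, which encodes haptoglobin, went from 11 and 6 to 149 and 168 and then 6555 and 5926 counts (9.77 ± 0.087). Mcemp1, a mast cell-expressed membrane protein, rose by 7.81 ± 0.21 and Ctsc, the protease that activates granule serine proteases, by 5.49 ± 0.039 (edgeR adjusted p for these 4 = 2.38e-62, 2.73e-57, 2.39e-36 and 3.15e-61). Chil3, which encodes a chitinase-like lectin, had 50 and 61 counts in WT at 0 hpi and 0 and 1 at 1 hpi. Camp, the cathelicidin of specific granules, had 30 and 20 and then 1 and 2. Both were called lower, as Ngp and Ltf were (edgeR adjusted p = 1.12e-14 and 2.88e-08). In R35A, Mmp8 reached 5542 and 5379 counts at 1 hpi and Hp 1091 and 1114, ahead of WT as Lyz2 was. The order of the mutants was not that of Lyz2, which was higher in R35K. At 1 hpi 7 mature granulocyte markers, nearly all of it Mmp8, summed to 310 CPM in R35A and 222 to 223 in R35K. This order was not tested.

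**Figure D5:**
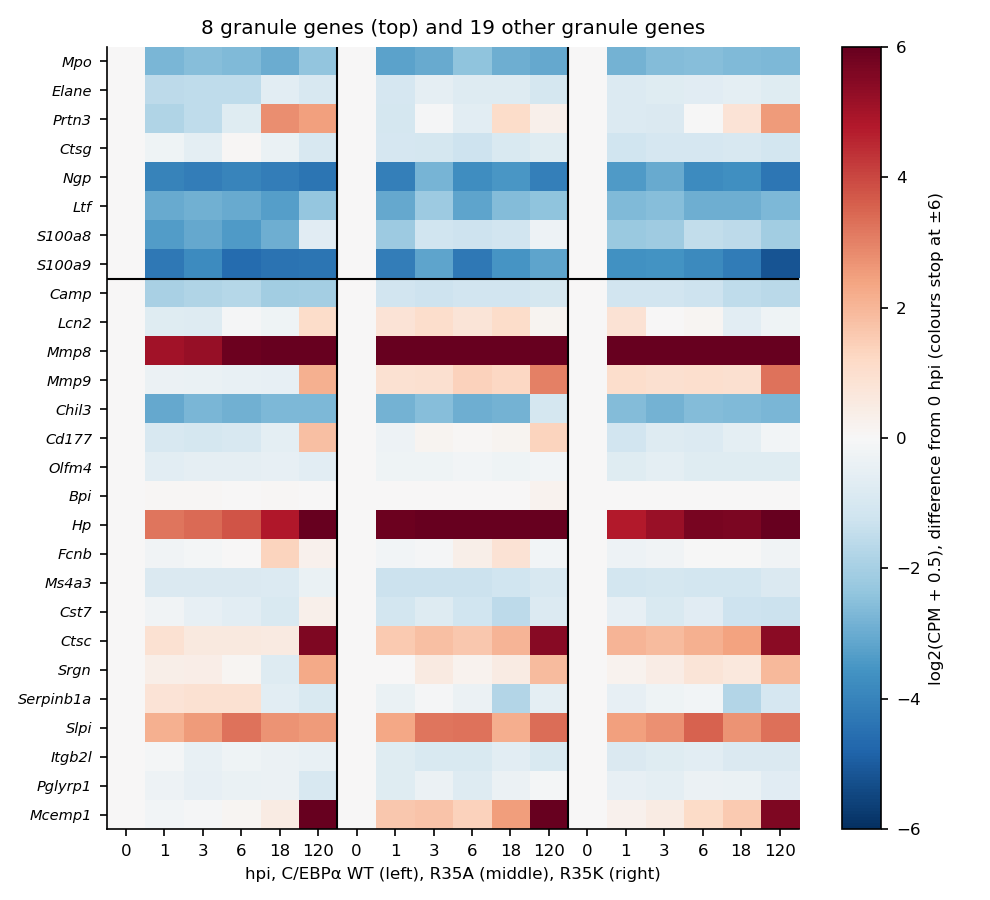
Differences of log2(CPM + 0.5) of group means from the 0 hpi group of the same construct, for the 8 granule and calprotectin genes above the line and 19 other granule genes below it, in columns by construct and time; colours stop at 6 in either direction. Mmp8 and Hp deepen in red from 1 hpi in each construct, Mpo, Ngp, Ltf, S100a9 and Chil3 are blue after 0 hpi, and Prtn3 is red late.

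Of 9 regulators of granulocyte and myeloid genes, 8 were tested and 5 were called higher and 1 lower in WT at 120 hpi, beside 23.1% and 40.2% of all genes. Csf3r, the receptor for the granulocyte growth factor G-CSF, rose by 7.26 ± 0.12 and Spi1, which encodes PU.1, by 3.48 ± 0.051, while Myb fell by 6.52 on the log2 scale (SE 0.072; edgeR adjusted p = 1.87e-45, 8.38e-48 and 4.16e-53). Csf3r was called lower in WT at 1 hpi (-1.26 ± 0.41, edgeR adjusted p = 0.0138, and 0.123 without WT replicate 2 at 1 hpi) and higher in R35A (2.86 ± 0.21, adjusted p = 4.76e-17). Of 11 other S100 genes, 9 were tested and 4 were called higher and none lower in WT at 1 hpi, where S100a8 and S100a9 fell and 10.7% and 9.27% of all genes were called higher and lower. S100a4 was the highest in change (1.41 ± 0.068, edgeR adjusted p = 5.73e-24), and by 120 hpi it had risen by 3.48 ± 0.059 (adjusted p = 9.16e-45). None of 5 lysozyme-like genes had enough counts to be tested in WT and R35A. Of 6 neighbouring genes for other serine proteases 3 were tested, and all 3 were called lower in WT at 120 hpi, as 40.2% of all genes were. Before that their level was higher. The 6 together summed in WT to 14.1 to 14.3 CPM at 0 hpi, 18.9 to 22.1 from 1 to 6 hpi and 1.15 to 1.24 at 120 hpi.

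Markers of other cells moved with these genes. The 9 macrophage markers summed to 39.4 to 44.5 CPM at 0 hpi, 256 to 260 in WT, 991 to 1013 in R35A and 2353 to 2415 in R35K at 1 hpi, and 8577 to 10379.6 at 120 hpi. None of the 9 was at 0 in these groups. Of 7 markers of mature granulocytes, Mmp8 rose as above. The other 6, Ly6g, Retnlg, Stfa2l1, Cxcr2, Padi4 and Cd177, summed to 2.55 to 3.02 CPM at 0 hpi, 0.262 to 1.35 at 1 to 18 hpi, and 4.43 to 13.3 at 120 hpi. Ly6g and Stfa2l1 had at most 2 and 3 counts in any library. Retnlg, the resistin-like gene of neutrophils, had 21 and 23 counts in WT at 0 hpi, 1 and 0 at 1 hpi and 0 and 0 at 120 hpi, the course of Mpo and S100a9 (edgeR adjusted p at 1 hpi = 9.89e-08). Retnlg does not stand for all 6 at the end point. Their sum in WT went the other way by then, from 2.71 to 3.02 CPM at 0 hpi to 12.2 to 13.3 at 120 hpi. The 7 feeder fibroblast markers summed to 1842 to 2008 CPM at 0 hpi, 2716 to 3573 at 1 hpi, 2270 to 4607 at 3 to 18 hpi and 144 to 543 at 120 hpi. The 8 markers of eosinophils, basophils and mast cells summed to 9.73 to 12.6 CPM at 0 hpi. From 1 to 6 hpi their sum was higher, at 16.1 to 19.1 in WT, 29.5 to 33.4 in R35A and 22.9 to 25.5 in R35K. In each group of these times, only 2 to 4 of the 8 had more than 3 counts in any library. Mcpt8 is in this list and also among the 6 neighbouring serine protease genes, so both sums hold its counts. At 120 hpi the 8 summed to 0.442 to 5.61. The part of these cells in the changes of the members was not tested. Every fall against 0 hpi rests on the same 2 libraries of each construct, in which Retnlg, Chil3 and Camp were high as well and feeder markers lower than at 1 hpi. Whether cells at 0 hpi were handled otherwise than induced cells is not given in the sources used here, and such handling and induction cannot be told apart. In bulk RNA, fewer cells of a type and less RNA in each cell cannot be told apart.

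The genes most like each member in log2(CPM + 0.5) over the 18 group means are given as a description, since the groups share a time course. Lyz2 was closest to Mpeg1 (r = 0.995), Fcer1g (0.994) and Ms4a6d (0.994), and Lyz1 to Ifi27l2a (0.991), Siglec1 (0.990) and Nlrp1c-ps (0.990). Mpo was closest to Phb2 (0.967), Gm36120 (0.967) and Retnlg (0.962), and S100a9 to Phb2 (0.964). Prtn3 was closest to the overlapping Plppr3 (0.868), and S100a8 to Pcbp1 (0.936). Among the members, Lyz1 and Lyz2 had r = 0.900, and S100a8 and S100a9 0.715.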

How the data were processed

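RNA was measured in 36 libraries (TruSeq Stranded mRNA, 50-base single-end reads). Per the labels and the submitters' processing notes, the authors used FastQC for read quality, STAR 2.5.0a for alignment to mm10 and for counting reads per gene, and DESeq2 1.14.1 for normalization. The annotation release and the strand column counted are not given in the sources used here. The deposited counts are whole reads per gene before normalization, in 1 table for C/EBPα WT and R35A (24 libraries) and 1 for R35K (12). The deposited log2 values equal log2(count/size factor + 1) of these counts within 1e-06, so they were used only as a check.

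Counts were tested with edgeR 4.0.16 (R 4.3.3; TMM scaling, filterByExpr, quasi-likelihood F test, 1 mean for each group) and Benjamini-Hochberg adjustment over all genes tested, 16988 in WT and R35A, 16434 in R35K and 17277 in the fit of all 36 libraries used for R35K minus WT changes. CPM and RPKM use library totals scaled by TMM, and RPKM the exon length of each gene in GENCODE vM21, where 97.1% of symbols matched. A group with 0 counts was set to 3 counts over the group for a bound, and ratios have exact 95% intervals. The scripts were tested on simulated data. The genes named are the 10 members, genes of the lists that were called, at most 4 per list and comparison by size of change, and the 3 genes most like each member. The members and lists were chosen with earlier results of these data known. Other settings tried were DESeq2 1.42.0, DESeq2 size factors, no filter on low counts, only the groups compared, a replicate block and each library left out. Biological coefficients of variation were 3.17% to 3.49%. For the median gene, the squared difference between the 2 libraries of a group was 1.07 to 2.00 times that from counting noise. The mean over genes was larger in some groups and reached 13.2 times in WT at 6 hpi. Replicate numbers did not pair libraries across groups, with a median correlation of deviations of -0.001 over 153 pairs of groups.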

Additional observations from a re-analysis of the deposited data

Results flagged for a closer look

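Results below are those where a mutant's change from 0 hpi differed from that of WT, tested by the difference itself in edgeR, each given at the time with the smallest adjusted p. In R35A, Lyz1 was called different at all 5 times, at 6 hpi with adjusted p = 0.0119. Each of these 5 calls was lost without either WT library at 0 hpi (edgeR adjusted p = 0.0605 to 0.128), the one at 120 hpi also with DESeq2 (0.0590), with only the groups compared (0.0531) and without the low-count filter (0.0946), and the one at 18 hpi in the last pair of settings (0.0525 and 0.0896). Lyz2 differed at 5 times, with a log2 difference of 3.05 at 3 hpi. Prtn3 differed at 4 times and in both directions, above WT at 1 and 3 hpi (1.89 and 2.61) and below it at 18 and 120 hpi (-1.78 and -2.36). Its call at 1 hpi (edgeR adjusted p = 0.0448) was lost with DESeq2 (0.0675), with a replicate block (0.0553), with only the groups compared (0.0504), without the low-count filter (0.0869) and with any of 6 libraries left out (0.0508 to 0.222). S100a8 differed at 4 times, with 2.70 at 6 hpi. S100a9 differed at 2 times, with 1.66 at 120 hpi, and its call at 18 hpi was lost with DESeq2 (adjusted p = 0.0908). Ngp differed at 3 hpi by 2.63 and Ctsg at 6 hpi with adjusted p = 0.000156. Elane was called at 3 hpi with adjusted p = 0.0190, a call lost with any of 5 libraries left out (edgeR adjusted p = 0.0539 to 0.150).

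In R35K, Lyz2 differed at 4 times, with 3.70 at 6 hpi, S100a8 at 5 with 2.45 at 6 hpi, and Lyz1 at 3, with adjusted p = 0.0184 at 6 hpi. The 3 calls of Lyz1 were lost without either WT library at 0 hpi or without R35K replicate 2 at 0 hpi (edgeR adjusted p = 0.0612 to 0.166), and those at 1 and 3 hpi without the low-count filter (0.0685 and 0.0979). Prtn3 differed at 18 hpi by -1.93 and Ngp at 3 hpi by 2.31. Ctsg differed at 2 times, with adjusted p = 0.00346 at 1 hpi in edgeR, and S100a9 at 2, with adjusted p = 0.00475 at 120 hpi (0.0572 with DESeq2). S100a8 is the only granule gene that differed from WT in 4 or more times in both mutants. Where only an adjusted p is given, a group in the comparison had 3 counts or fewer, so that no fitted fold is printed.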

How the results depend on the processing

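Calls are counted here as pairs of a member and a comparison. There were 46 in WT against 0 hpi, 46 in R35A, 44 in R35K, 24 in R35A against WT, 23 and 18 in the R35A and R35K changes against that of WT, and 17 between 18 and 120 hpi. With only the groups compared in the fit, the last count was 11, more than 1.5 times lower. With DESeq2 the counts were 43, 44, 41, 19, 18, 15 and 15, and with a replicate block they were 46, 46, 44, 24, 23, 18 and 17, as without it, although the R35A minus WT change of Prtn3 at 1 hpi was not called with the block (adjusted p = 0.0553). DESeq2 gave no adjusted p for some pairs with few counts, most of them of Ctsg and Elane, and these are not among its calls. With each library left out in turn they ranged over 39 to 45, 43 to 46, 44 to 44, 21 to 23, 16 to 23, 15 to 20 and 15 to 17. No direction reversed. Of 218 called pairs, 37 lost the call under at least 1 setting and 22 under a setting other than a left-out library. A pair that a setting did not test, or gave no adjusted p, was not counted as lost there. The counts of 37 and 22 are therefore lower limits. Size factors of DESeq2 in place of TMM moved the median log2 change of all genes by 0.116 in WT at 18 hpi, by 0.129 to 0.158 at 120 hpi against 0 hpi and by -0.106 in the R35K minus WT change at 18 hpi, and the changes above are relative to TMM. Depth limits Elane, Ctsg and, before induction, Lyz1, whose groups had as few as 0 counts.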
